A study of Mus musculus with 12 samples.

Results

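Fgf21, Cebpb, Nupr1l and Eif4ebp1, genes linked to the responses of cells to lost nutrients and other stress, were followed in mature mouse oocytes with and without Dicer, the enzyme that cuts microRNA and small interfering RNA precursors. They are 4 of the 311 genes to which a probe of the array could be paired by symbol. Each is read by a set probe, and the 4 were picked with their knockout and wild-type signals known, so the difference between the genotypes is described here without a test. The stress response is named from the known roles of these genes and not from a measurement.

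The labels gave 12 arrays of mature oocytes, 6 labelled Dicer Knock-Out and 6 labelled Dicer Wild-type, each hybridized with digoxigenin-labelled cRNA amplified from total RNA and read by chemiluminescence. Strain, age, treatment, the Cre driver and the number of oocytes and females behind an array are not given in the sources read here. The replicates may thus be technical, and any spread or p-value covers only the spread between these arrays. An array's signal also cannot tell fewer cells from less RNA per cell. The running codes in the array titles list all knockout arrays before all wild-type arrays. What the codes stand for is not stated, and anything that follows their order cannot be told apart from genotype.

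In the integrated stress response, kinases that sense missing amino acids, misfolded proteins or other damage phosphorylate the initiation factor eIF2, which lowers general translation while the transcription factor ATF4 is made. ATF4 pairs with C/EBP proteins on composite elements in front of its target genes. Fgf21, a secreted hormone of fasting, and Eif4ebp1, a repressor that holds the cap-binding protein eIF4E until the kinase mTORC1 releases it, are known targets of ATF4, and Cebpb encodes one of the C/EBP proteins. Nupr1l encodes a small paralogue of NUPR1, a chromatin-associated stress protein that is itself known to be induced with ATF4. Growing oocytes store their messages, and in the mature egg, where transcription is silent, the translation of stored messages takes over.

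The promoters of the 3 genes found in the RefSeq promoter table are shown because the composite element is the known route from ATF4 to such genes. They are given 5′ to 3′ on the gene's strand, from GRCm38.p6, and hold 250 bases before and 50 bases from the annotated start. The window of Fgf21 is chr7:45615441-45615740 on the minus strand, that of Cebpb chr2:167688665-167688964 on the plus strand, and that of Nupr1l chr5:129908290-129908589 on the plus strand. Capitals mark a match to TGATGNAA, the core of the composite element, or to TTGCNNAA, a C/EBP element, on either strand.
Fgf21: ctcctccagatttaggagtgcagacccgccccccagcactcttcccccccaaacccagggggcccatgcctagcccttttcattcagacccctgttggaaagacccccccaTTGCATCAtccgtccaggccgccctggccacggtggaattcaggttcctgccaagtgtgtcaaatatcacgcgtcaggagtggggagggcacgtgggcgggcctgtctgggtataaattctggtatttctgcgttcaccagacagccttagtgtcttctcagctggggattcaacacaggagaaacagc
Cebpb: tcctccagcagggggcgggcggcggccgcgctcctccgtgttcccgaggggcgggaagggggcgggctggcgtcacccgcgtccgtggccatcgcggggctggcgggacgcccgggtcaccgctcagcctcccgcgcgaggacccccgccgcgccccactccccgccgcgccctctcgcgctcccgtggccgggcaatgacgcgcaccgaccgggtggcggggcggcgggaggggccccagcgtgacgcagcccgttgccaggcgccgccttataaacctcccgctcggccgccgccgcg
Nupr1l: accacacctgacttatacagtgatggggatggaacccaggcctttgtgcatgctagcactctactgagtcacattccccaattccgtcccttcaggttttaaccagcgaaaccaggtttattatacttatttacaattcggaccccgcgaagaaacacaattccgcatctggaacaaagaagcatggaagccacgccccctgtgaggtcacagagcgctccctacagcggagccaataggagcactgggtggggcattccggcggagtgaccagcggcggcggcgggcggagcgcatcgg
Fgf21 held 1 match to TGATGNAA, read on the opposite strand as TTGCATCA, at -139 to -132 from the start. The other 2 promoters held 0 matches to it in this window, and none of the 3 held a match to TTGCNNAA. Of 32851 promoters of the same length in the table, 3.97% held TGATGNAA and 10.8% held TTGCNNAA on either strand. The Cebpb window was 80.7% G and C, against a median of 52.7% over all promoters in the table, while those of Fgf21 and Nupr1l were 58.0% and 55.7%. A match is a run of letters and not a measured binding site.

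Knockout arrays were brighter than wild-type arrays, which bears on every difference below. The median signal of 2979 probes detected on each of the 12 arrays was 2.74-fold higher on knockout arrays (exact two-sided permutation test, p = 0.00433, or 0.0130 after Benjamini-Hochberg adjustment over 3 measures), and 5 of 6 knockout arrays lay above all wild-type arrays. Hybridization control spots were 1.08-fold and in vitro transcription control spots 0.835-fold as bright (exact permutation p = 0.459 and 0.335, adjusted 0.459 each). Above background means a signal-over-noise score of at least 3, which 7361 to 9598 probes met on knockout arrays and 5707 to 7102 on wild-type arrays. Dicer1 was not among the genes with a symbol, so the labels could not be checked on the deleted gene. Of 32 oocyte markers 5 had a probe with a symbol (Obox1, Obox2, Obox3, Cphx1 and Mos), of which the first 4 were above background on all arrays and Mos on 11. Of 24 granulosa and cumulus cell markers only Sfrp4 had one, above background on 1 knockout array and 0 wild-type arrays. Of 11 blood and immune markers Hba-a1 had one, above background on 1 array of each group, and of 7 liver markers 0 had one.

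Fgf21 was bright on every knockout array and at the noise floor on every wild-type array. Its scanner signal was lowest at 2934, at a median of 7120 and highest at 24375 intensity units in knockout oocytes, with signal-over-noise scores of 16.3 to 70.9. In wild-type oocytes the lowest, median and highest signals were 109, 164 and 334, with scores from -2.15 to 2.0. The groups did not overlap, and the dimmest knockout array lay far above the brightest wild-type array. They also did not overlap after quantile normalization, for which the share over all tested probes is given below. After quantile normalization, which gives each array the same distribution, the log2 signal was 12.17 ± 0.89 in the knockout and 7.51 ± 0.65 in the wild type (SD, n = 6 each). As no wild-type array was above background, the fold has no firm size. The knockout mean was 25.2-fold above a wild-type reference level. On each wild-type array this level was the lowest signal above background of any probe, or the Fgf21 signal where higher. It lay so near the Fgf21 signals that the plain difference of means gave 25.4-fold. The level is not the detection limit of the Fgf21 probe, and dim spots sit at their own error. The fold may thus be smaller or larger. Of 33012 probes, 178 (0.539%) were detected in this way on all 6 knockout arrays and 0 wild-type arrays. With symbols there were 3 such genes, the other two being Pdxp, the pyridoxal phosphatase, and Unkl. The opposite pattern was seen for 3 probes (0.00909%).

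Cebpb, the transcription factor C/EBPβ, was above background on all knockout arrays and on 2 wild-type arrays by the probe that was followed. Its lowest, median and highest signals were 784, 1857 and 3246 in knockout oocytes. In wild-type oocytes they were 98.8, 210 and 625, with 523 on replicate 3 and 625 on replicate 5 being the 2 above background. The scanner signals did not overlap, but they carry the higher brightness of the knockout arrays. The share of all probes that did not overlap on this scale was not counted. After quantile normalization wild-type replicate 5, at a log2 signal of 10.17, lay above 3 knockout arrays. The normalized log2 signal was 10.24 ± 0.69 against 8.23 ± 1.29 (SD, n = 6 each), a difference of 2.01 ± 0.60 (SE), or 4.02-fold. The size rests on a wild-type mean in which 4 of 6 values were not above background.

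A second probe carries the same Cebpb accession and gave no signal above background on any of the 12 arrays. Its lowest, median and highest signals were 90.8, 187 and 529 in knockout oocytes and 150, 221 and 325 in wild-type oocytes. The highest score was 2.20, on a wild-type array. After quantile normalization the probe stood at 7.44 ± 0.76 against 7.96 ± 0.29 (SD, n = 6 each), a difference of -0.52 ± 0.33 (SE) between values at the noise floor, from which no direction is read. The 2 probes thus disagree on whether Cebpb was detected at all, and the files do not give the part of the transcript that each one reads. Such pairs were also seen for identifiers of other kinds. Of 733 identifiers with at least 2 probes, 1 of them above background on 6 or more arrays, 235 (32.1%) also had a probe that was never above background. Only 2 of the 733 were RefSeq accessions like that of Cebpb, and the 1 with such a silent probe was Cebpb itself. How common this is for RefSeq accessions thus cannot be told.

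Nupr1l, the NUPR1 paralogue, was above background on all knockout arrays and on 2 wild-type arrays, and its groups overlapped. Its lowest, median and highest signals were 1302, 2298 and 7768 in knockout oocytes and 102, 129 and 1822 in wild-type oocytes. Wild-type replicate 2, at 1822 with a score of 19.5, was brighter than 3 knockout arrays, and wild-type replicate 5 stood just above background at 352 with a score of 3.32. The other 4 wild-type arrays lay between 102 and 149. The normalized log2 signal was 10.63 ± 0.68 against 7.90 ± 1.70 (SD, n = 6 each), a difference of 2.73 ± 0.75 (SE), or 6.65-fold. The size rests on a wild-type mean in which 4 of 6 values were not above background. Without wild-type replicate 2 the fold was 10.04, and it rests on those 4 values even more. That array had the most probes above background in its group, 7102, and the highest median signal over the common probes, 10801 where the other 5 had 4095 to 6792. The part of its brightness in the Nupr1l signal was not tested.

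Eif4ebp1, the translation repressor, was not above background on any of the 12 arrays, which held for 37.4% of all probes. Its lowest, median and highest signals were 94.1, 195 and 257 in knockout oocytes and 80.2, 207 and 260 in wild-type oocytes, so the groups lay over each other. The highest score was 1.90 in the knockout and 1.97 in the wild type. Its normalized log2 signal, 7.39 ± 0.42 against 7.55 ± 0.75 (SD, n = 6 each), is that of the noise floor, and no fold is given.

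**Figure D1:**
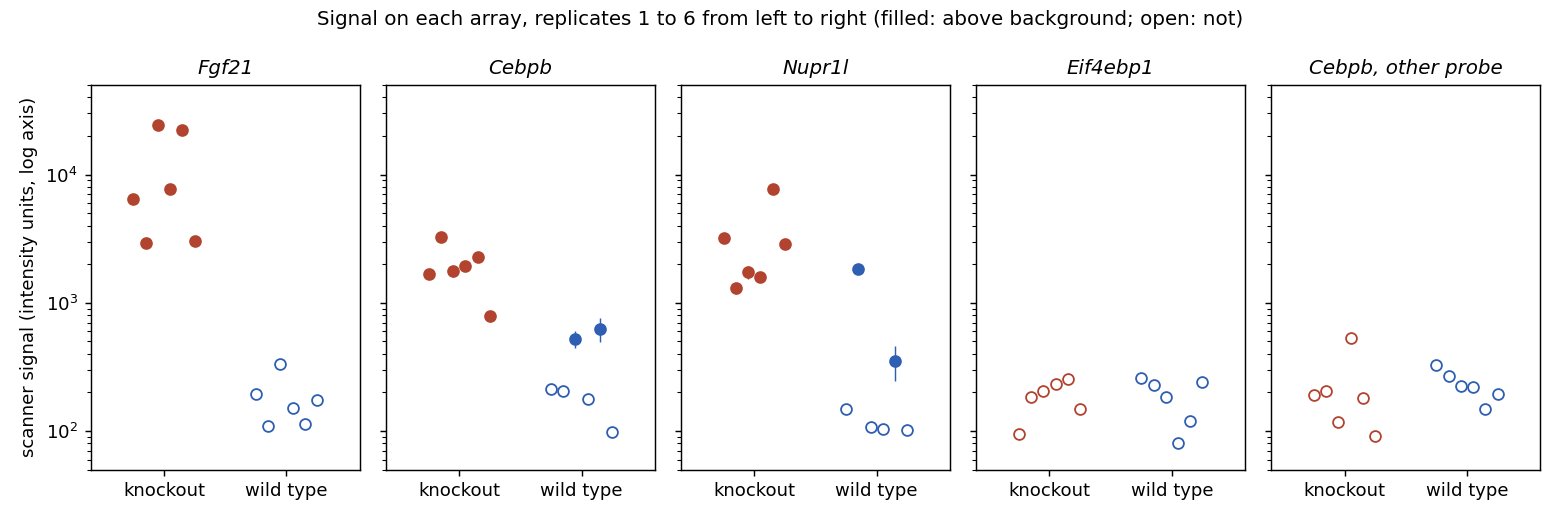
Scanner signal (intensity units, log axis) of the probes of Fgf21, Cebpb, Nupr1l and Eif4ebp1 and of the other Cebpb probe on each of 6 knockout (red) and 6 wild-type (blue) arrays; filled points are above background and carry the scanner's own spot error, open points are not. Fgf21 runs from 2934 to 24375 in the knockout and from 109 to 334 in the wild type, Nupr1l overlaps at wild-type replicate 2, and both probes on the right have no filled point.

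Within the knockout group the 3 detected genes each had their highest signal on a different array, though some high and low arrays were shared. Cebpb counts as detected here and below only by the probe that was followed, since its other probe was silent. The scanner's error was 1.41% to 6.14% of the knockout signal for Fgf21, 5.34% to 9.77% for Cebpb and 1.97% to 11.7% for Nupr1l. The highest knockout signal was 8.31 times the lowest for Fgf21, 4.14 times for Cebpb and 5.96 times for Nupr1l. These scanner signals also carry the brightness of each array, whose median over the common probes ran from 9562 to 24384 in the knockout. For Fgf21 the high arrays were replicates 3 and 5, at normalized log2 signals of 13.33 and 13.01, and the low ones replicates 2 and 6, at 11.34 and 11.08. Replicates 3 and 5 also had the highest such medians, 21693 and 24384, and the part of brightness in their Fgf21 signal was not tested. Cebpb was highest on replicate 2, at 11.49, where Fgf21 was low, and lowest on replicate 6, at 9.46. Nupr1l was highest on replicates 5, 1 and 6, at 11.51, 11.15 and 11.003, and lowest on replicate 3, at 9.82, where Fgf21 was highest. Among wild-type arrays only replicate 5 had both Cebpb and Nupr1l above background. The 3 detected genes so did not share an order of arrays within the knockout group.

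**Figure D2:**
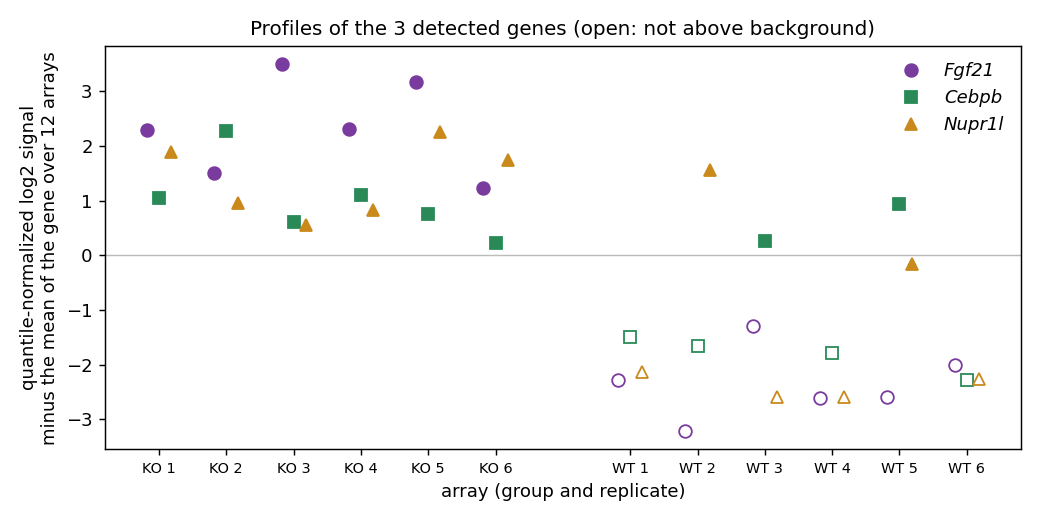
Quantile-normalized log2 signal of Fgf21, Cebpb and Nupr1l on each array, minus the mean of that gene over the 12 arrays; open points are not above background. All 3 genes lie above their means on every knockout array, but the highest array differs. It is knockout replicate 3 for Fgf21, replicate 2 for Cebpb and replicate 5 for Nupr1l, while replicate 5 is also high for Fgf21. Nupr1l on wild-type replicate 2 lies among the knockout values.

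Likeness between profiles was measured as the root mean square distance of log2 signals over the 12 arrays, each probe centred on its own mean. The distance was 1.76 between Fgf21 and Cebpb, 1.89 between Fgf21 and Nupr1l and 1.52 between Cebpb and Nupr1l. Among 69 other tested probes with a symbol, the nearest to Fgf21 were Pdxp at 0.96, Mos, the kinase that holds eggs in metaphase, at 1.19 and C130026I21Rik at 1.25, against a median of 2.51. The nearest to Cebpb were the splicing factor gene Sf3b5 at 1.005, the zinc finger gene Zfp979 at 1.01 and the oocyte homeobox gene Cphx1 at 1.05, against a median of 1.59. The nearest to Nupr1l were Zbtb18, a transcriptional repressor, at 1.07, the keratin-associated Krtap9-3 at 1.07 and Notum, an enzyme that inactivates Wnt proteins, at 1.17, against a median of 1.89. With median-centred arrays Fgf21 had the same 3 nearest genes, Nupr1l shared 2 of 3 and Cebpb 1 of 3. The distances take in the difference between the genotypes as well as wild-type values at the noise floor.

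The share of all probes that differed is given as the background to these genes, from which nothing is read about them, since they were picked on this contrast. A probe was tested where it was above background on at least 6 of 12 arrays, which 6088 probes, Fgf21, Cebpb and Nupr1l met and Eif4ebp1 did not. In limma 28.1% of the tested probes were higher in the knockout and 22.4% lower at an adjusted p under 0.05. All knockout arrays lay above all wild-type arrays for 15.2% of the tested probes and, of the 3 genes, for 1, Fgf21. The difference was at least 1 on the log2 scale for 29% of the tested probes and for each of the 3 genes. It was at least that of Cebpb for 12.1% of the tested probes, that of Nupr1l for 6.26% and that of Fgf21 for 1.26%. Fgf21 met the filter through its knockout arrays alone. The median over all tested probes was 0.18.

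The sizes depended on how the arrays were scaled. The log2 difference ranged from 1.94 to 3.78 for Nupr1l and from 1.26 to 3.10 for Cebpb over 8 scalings. Scaling on control spots and the authors' deposited table gave the highest values. Taken above the median of the tested probes under the same scaling, Nupr1l stood 2.04 to 2.55 higher and Cebpb 1.38 to 1.83. The groups of Cebpb were apart in 3 of the 8 scalings, those on hybridization controls, in vitro transcription controls and the deposited table. Those of Nupr1l were apart in 2, with in vitro transcription controls and the deposited table. Under the 3 scalings the median difference over all tested probes was itself 1.29, 1.65 and 1.39. The share of all tested probes whose groups were apart was not counted there, so nothing is read from these counts. The fold of Fgf21 over its wild-type reference level was lowest, 14.4, when quantiles were matched over the tested probes only. It was highest, 56.3, with in vitro transcription controls.

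**Figure D3:**
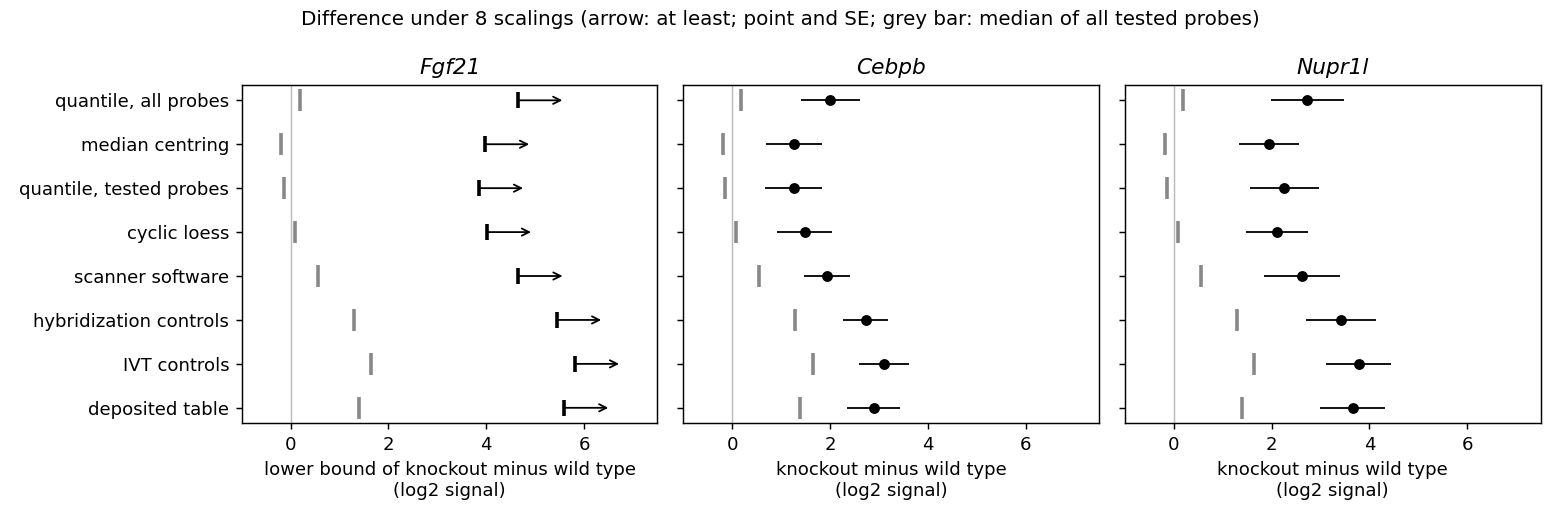
Knockout against wild type under 8 scalings, on the log2 scale. For Fgf21 each arrow starts at the difference from the wild-type reference level, since no wild-type array was above background. The axis calls this a lower bound, but it is no limit for this probe, and the arrow's direction and length have no meaning. For Cebpb and Nupr1l each point is the difference with its SE (n = 6 arrays a group). The grey bar is the median of all tested probes. Cebpb lies between 1.26 and 3.10 and Nupr1l between 1.94 and 3.78, and the grey bars move with the points when control spots or the deposited table set the scale.

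The probes of the 3 detected genes sat in the same part of the array and those of Eif4ebp1 and of the other Cebpb probe in the opposite one. The scanner software scales the rows up to 119 and those from 121 by separate factors. Fgf21, Cebpb and Nupr1l sit in rows 48, 50 and 24, Eif4ebp1 in row 167 and the other Cebpb probe in row 130. The median difference of the tested probes was 0.23 in the lower rows and 0.13 in the higher ones, and 29.4% and 26.7% of them were higher in the knockout at an adjusted p under 0.05 in limma. With the software's own scaling, which treats the parts separately, Cebpb stood at 1.93 by the probe that was followed. The other Cebpb probe, at the noise floor, stood at -1.04, from which no direction is read. The part of array position in the disagreement of the 2 probes was not tested.

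The rest of the pathway could not be read, because few probes have a symbol here. Symbols were found for 317 of 33012 probes, and probes for the genes that follow may be on the array under identifiers not matched to a symbol. Of 37 genes of the integrated stress response and ATF4 targets, 19 of the unfolded protein response, 25 of heat shock and oxidative stress, 28 of mTOR signalling and cap-dependent translation, 24 of the FGF family with its receptors and regulators and 13 partners of NUPR1 and p53, 0 had a probe with a symbol. Of 19 C/EBP family members and partners only Jun, which pairs with Fos and ATF proteins, had one. It was above background on 0 of 12 arrays, with signals of 188 to 626 in the knockout and 121 to 331 in the wild type. So 0 genes of these lists were tested in either direction.

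Rraga and Flcn, which act in amino acid sensing above mTORC1, had probes with symbols and were singled out after their values were seen. The p-values given for them are therefore no test of these genes. For comparison, in limma 28.1% of all tested probes were higher in the knockout at an adjusted p under 0.05. Rraga encodes a Rag GTPase that brings mTORC1 to the lysosome. Its lowest, median and highest signals were 487, 2808 and 8479 in knockout oocytes and 125, 314 and 1708 in wild-type oocytes, so that the groups overlapped, with 6 knockout and 3 wild-type arrays above background. Rraga was higher in the knockout by 1.99 ± 0.65 on the log2 scale (SE; limma, adjusted p = 0.0206 over all tested probes). With median centring the limma adjusted p was 0.0553, with quantile normalization over tested probes 0.0613 and with no filter on dim probes 0.0541. The lowest of the alternatives, 0.000848 in limma, came with the deposited table. Under that scaling 3842 of 6088 tested probes passed as higher in the knockout, and the median difference over all tested probes was itself 1.39. Flcn encodes folliculin, a regulator of the Rag GTPases, and was above background on all arrays. Its lowest, median and highest signals were 31031, 82213 and 245228 in the knockout and 13812, 15036 and 79433 in the wild type. The difference of Flcn was 0.40 ± 0.37 (SE) and did not pass after quantile normalization (limma, adjusted p = 0.391). It also did not pass with median centring, cyclic loess or the scanner software's signal (limma, adjusted p = 0.547, 0.154 and 0.164). It passed at 1.74, 2.11 and 1.86 with hybridization controls, in vitro transcription controls and the deposited table. Under these scalings the median difference over all tested probes was itself 1.29, 1.65 and 1.39.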

How the data were processed

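Total RNA of mature oocytes was extracted with Trizol and amplified to digoxigenin-labelled cRNA, per the labels' protocols. The arrays, Mouse Genome Survey Microarrays version 1.0, were read with AB1700 Expression Array System software version 1.1.1, per the file headers. In the deposited scanner files each spot has its signal as a linear intensity with its error, the software's own normalized intensity, a score of signal over noise and, as other values, quality flags. Dim spots sit at their own error, so low signals are a noise floor. The series table that the authors deposited, of linear intensity scaled in a way the sources read here leave unstated, served as an alternative.

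Flags of 5000 or above made a spot missing (0 of the spots described). Signals of 33012 gene probes were log2-transformed and quantile-normalized. Probes with a score of at least 3 on at least 6 of 12 arrays were tested with limma 3.58.1 (R 4.3.3; lmFit, eBayes, two-sided, Benjamini-Hochberg, threshold 0.05) without pairing, since replicate numbers only name arrays. Symbols came from a RefSeq gene table of GRCm38.p6, by unversioned accession for 311 probes and synonym for 6. The fit was tested on simulated data of 6020 probes, 200 of them changed, with no difference in brightness between the groups. It recovered 17% of the 2-fold and 66% of the 4-fold changes, and 3.49% of 86 calls were false. Real changes of these sizes may thus fail to pass. The arrays themselves differ in brightness and in many more probes than were changed there. Python 3.11.15 and matplotlib 3.10.9 gave summaries and figures. Genes named are the 4 genes, all genes of 11 lists that had a symbol, and the 3 nearest profiles of each detected gene. Rraga, Flcn, Pdxp, Unkl and the second Cebpb probe were named after their values were seen, Pdxp also by nearness. The genes, lists and motifs were chosen with earlier results of these data known. The number of arrays limits the precision.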

Additional observations from a re-analysis of the deposited data

How the results depend on the processing

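Alternatives were 7 other scalings, keeping spots with bad-spot flags, other filters on dim probes, other score thresholds and leaving out each of the 12 arrays. The second Cebpb probe was added as an alternative after the data were seen. Quantile normalization was first run on the linear signal and was replaced by that on the log2 signal after the results of both had been seen. The linear version gave log2 differences of 4.91 for Fgf21, 2.12 for Cebpb, 2.88 for Nupr1l and -0.16 for Eif4ebp1, with 1705 higher and 1361 lower probes. Scaled to hybridization controls, in vitro transcription controls or the authors' deposited table, the log2 difference of Fgf21 was 5.46, 5.83 and 5.61, against wild-type values not above background. Its fold over the wild-type reference level was 43.7, 56.3 and 48.3, beside 14.4 with quantile normalization over the tested probes. Cebpb stood at 3.10 with in vitro transcription controls, and at -0.52 by its second probe, which was above background on 0 of 12 arrays and gives no direction. Eif4ebp1, at the noise floor, stood at -1.53 with median centring. The cause of these shifts was not tested. With both kinds of control and the deposited table the count of probes higher in the knockout was 3460, 4038 and 3842 against 1711, and of lower ones 146, 64 and 146 against 1366, with 511 lower by the scanner software's signal. Nupr1l moved by less than its own spread between arrays in all 21 alternatives, but that spread was wide, with an SD of 1.70 in the wild type. Its fold ran from 3.85 to 13.8 over the 8 scalings and was 10.04 without wild-type replicate 2. Nupr1l is thus not shown to be steadier than the other genes. Leaving out each array gave 4.36 to 4.97 for Fgf21, 1.76 to 2.43 for Cebpb, 2.47 to 3.33 for Nupr1l and -0.42 to 0.01 for Eif4ebp1, and 1306 to 1678 higher and 1254 to 1389 lower probes. At a score of at least 2, Fgf21 was above background on 1 wild-type array, and at a score of at least 5 Cebpb and Nupr1l were on 1 each. No paired analysis was possible because the labels give no replicate numbers that the groups share. Signals at the noise floor limit all wild-type values of Fgf21 and Eif4ebp1 and those of Cebpb and Nupr1l on 4 of 6 arrays.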
